A study of Mus musculus with 102 samples.

Results

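A set of CpGs in mouse embryonic stem cells stayed highly methylated after Cre-mediated deletion of both de novo DNA methyltransferases. These CpGs were chosen from CpGs with at least 100 reads in each of 8 columns of capture bisulfite sequencing. The choice required a level of 60% to under 90% in wild-type cells, at least 80% in TTKO cells at day 0, and a day 29 level of at least 0.9 times the day 0 level. Of 2177608 CpGs in the capture table, 1560234 had the coverage, 169089 also met the wild-type and day 0 limits, and 23327 kept methylation by this rule, which is 13.8% of the 169089. The other 145762 CpGs inside the same limits serve for comparison, among them 5964 that lost more than 50% of their day 0 level.

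TTKO cells carry inactivating mutations of Tet1, Tet2 and Tet3 and floxed alleles of Dnmt3a and Dnmt3b. They were made as 1 clone from the wild-type line, a C57BL6/J embryonic stem cell line with the same floxed alleles and intact Tet genes, so every group carried the floxed alleles. Cre protein was added to the culture medium to excise the catalytic exons of Dnmt3a and Dnmt3b, while mock samples received the Cre buffer. By the study's methods the excision was not complete, so a minority of functional Dnmt3 alleles remained in the Cre samples, and their part in the levels was not tested. Capture data comprised TTKO cells at day 0 without transduction and at days 4, 8, 10, 13, 17 and 29 after Cre, and wild-type cells at day 0 without transduction, 3 samples each. The deposited capture table joins the 3 samples of a group in 1 column, so the capture levels below are pooled values without replicate error. Amplicon bisulfite sequencing of the same lines kept its 3 replicates apart and included mock samples. With a single clone per genotype, the Tet mutations and the clone cannot be told apart.

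DNA methylation at a CpG is copied after replication by DNMT1, which prefers CpGs that carry a methyl group on 1 strand only. DNMT3A and DNMT3B add methyl groups irrespective of the state of the other strand, and TET enzymes oxidise 5-methylcytosine on the way to its removal.

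The sequences below show parts of the largest groups of such CpGs. Runs were formed from CpGs that kept methylation and lay at most 1000 bases from the next. For the largest runs, the window of 160 bases with the most CpGs that kept methylation is given on the plus strand of mm9, where no annotated transcript had an untranslated part. The run in coding sequence of Srrm2 is not shown because another transcript is annotated as untranslated there. Capitals mark the CpGs that kept methylation, and CpGs in lower case did not meet the rule.

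Sox5, partly exonic, chr6:143781931-143782090: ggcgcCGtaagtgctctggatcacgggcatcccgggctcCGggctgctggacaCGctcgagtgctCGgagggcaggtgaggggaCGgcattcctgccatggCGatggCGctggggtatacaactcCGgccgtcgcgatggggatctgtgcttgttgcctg
Sfi1 and Drg1, intronic, chr11:3093005-3093164: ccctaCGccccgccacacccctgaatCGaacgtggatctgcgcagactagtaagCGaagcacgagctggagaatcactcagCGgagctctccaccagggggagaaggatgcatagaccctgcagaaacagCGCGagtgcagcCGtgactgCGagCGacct
Armc8, intronic, chr9:99394334-99394493: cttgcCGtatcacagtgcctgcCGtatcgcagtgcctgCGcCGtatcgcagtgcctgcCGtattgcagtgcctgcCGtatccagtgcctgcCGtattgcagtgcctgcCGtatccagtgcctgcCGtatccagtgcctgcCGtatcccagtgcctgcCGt
Prkce, intronic, chr17:86702220-86702379: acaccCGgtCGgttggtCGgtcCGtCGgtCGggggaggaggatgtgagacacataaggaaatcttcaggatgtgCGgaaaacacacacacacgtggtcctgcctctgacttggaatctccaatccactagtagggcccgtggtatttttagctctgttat
Pxdn, coding exon, chr12:30687296-30687455: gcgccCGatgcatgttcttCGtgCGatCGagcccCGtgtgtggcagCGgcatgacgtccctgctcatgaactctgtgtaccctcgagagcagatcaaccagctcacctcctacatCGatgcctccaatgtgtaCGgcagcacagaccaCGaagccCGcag
Nearest gene Tlx3, intergenic, chr11:33097613-33097772: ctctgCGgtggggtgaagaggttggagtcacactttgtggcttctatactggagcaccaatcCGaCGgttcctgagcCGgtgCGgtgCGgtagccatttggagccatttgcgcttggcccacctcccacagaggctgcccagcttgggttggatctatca
Nearest gene Clint1, intergenic, chr11:45642663-45642822: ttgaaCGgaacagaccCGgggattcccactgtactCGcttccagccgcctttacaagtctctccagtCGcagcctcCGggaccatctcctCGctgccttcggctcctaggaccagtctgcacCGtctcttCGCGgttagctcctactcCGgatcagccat

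These windows held from 6 CpGs that kept methylation, near Tlx3, to 11 in Armc8. In the Armc8 window, 11 of 13 CpGs with sufficient coverage were kept and recurred within a short repeated unit. Their mean level was 86.8% in wild type, 90.8% at day 4 and 89.3% at day 17. In the coding exon of Pxdn, 10 of 13 CpGs were kept, with means of 84.5% in wild type, 92.0% at day 4 and 88.2% at day 17. As a contrast, the next line gives the window of the same length with the most CpGs that lost over 50% of their level, which lies in an intron of Pik3cd, and its capitals mark those CpGs.

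Pik3cd, intronic, chr4:149076116-149076275: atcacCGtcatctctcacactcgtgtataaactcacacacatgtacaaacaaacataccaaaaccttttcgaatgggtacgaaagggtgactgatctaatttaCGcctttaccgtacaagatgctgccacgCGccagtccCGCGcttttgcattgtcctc

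In this Pik3cd window 5 of 10 CpGs lost over 50%. Their mean level was 67.5% in wild type, 82.1% on day 4, 56.9% on day 17 and 38.6% on day 29.

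Over the time course, the CpGs that kept methylation stayed flat for the first days and then declined by a few points. Their median level was 87.7% before Cre, 88.2% and 88.7% on days 4 and 8, 86.7% and 85.8% on days 10 and 13, and 83.0% and 82.5% on days 17 and 29. Among the other CpGs inside the limits the medians were 84.7, 83.8, 81.6, 78.3, 75.6, 69.6 and 62.9% at the same 7 time points. Days 0 and 29 and the wild-type level chose the CpGs, so differences at those columns are descriptions of the choice. Between days 17 and 29 the kept CpGs changed by a median of -0.30 percentage points, against -6.80 in the others, and day 29 was among the columns that chose them.

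**Figure D1:**
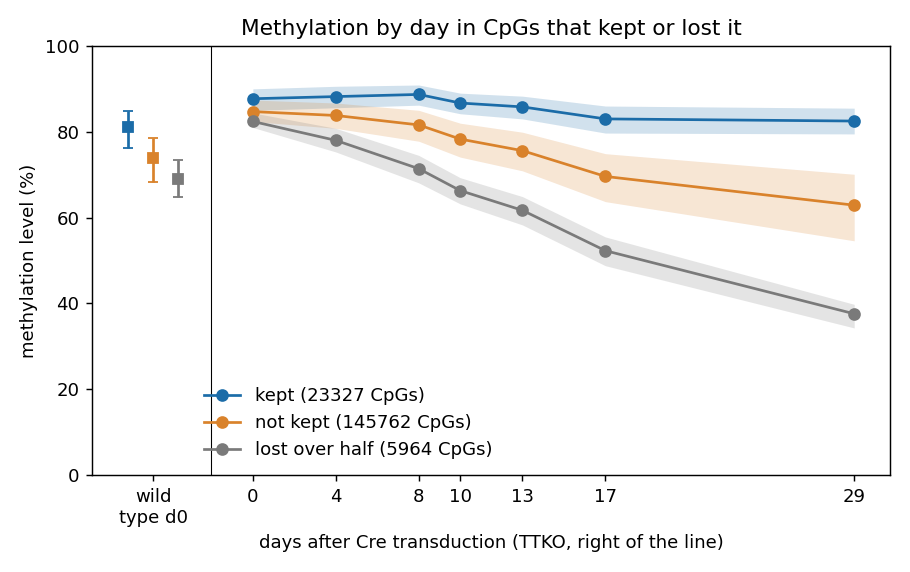
Methylation level in percent against days after Cre transduction in TTKO cells, with wild-type day 0 left of the line; lines and squares are medians over CpGs, and bands and bars span the quartiles. The kept CpGs have a median of 82.5% at day 29, the CpGs not kept 62.9%, and those that lost over 50%, which are part of the CpGs not kept, 37.6%.

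The rule set its limit on a continuous distribution. Of the 169089 CpGs, 3.53% kept less than 50% of their day 0 level, 9.42% kept 50 to 60%, 19.4% kept 60 to 70%, 27.7% kept 70 to 80%, 26.1% kept 80 to 90% and 12.9% kept 90 to 100%. A further 1561 CpGs (0.923%) were at or above their day 0 level at day 29. Just inside the limit, 3557 CpGs kept 90 to 91% and had mean levels of 87.3% at day 0 and 79.0% at day 29. Just outside, 3724 CpGs kept 89 to 90% and had means of 87.1% and 77.9%. Counting error moves single CpGs across this limit: for 8467 CpGs the lower end of the 95% Wilson interval of the day 29 level was itself at least 0.9 times the day 0 level.

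Days 4 and 17 did not enter the rule and gave a separate measure of loss. The day 17 level was a median of 94.2% of the day 4 level in the kept CpGs, with quartiles of 91.4% and 96.8%. In the other CpGs the median was 83.0%, with quartiles of 77.6% and 87.7%. It was 66.96% in those that had lost over 50% by day 29. At least 90% of the day 4 level remained at day 17 in 84.7% of the kept CpGs and in 14.9% of the others. This order was seen on 20 of 20 chromosomes other than Y.

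**Figure D2:**
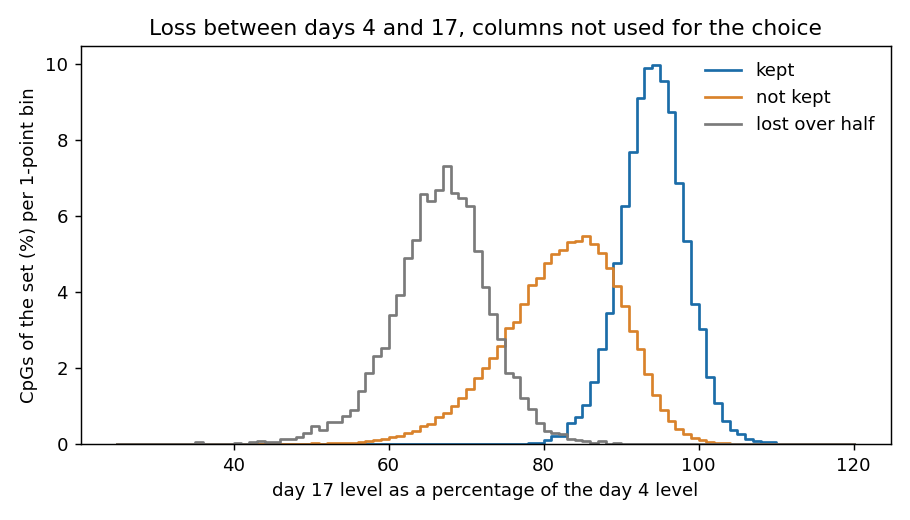
Share of CpGs per bin of 1 point against the day 17 level as a percentage of the day 4 level, for kept CpGs, CpGs not kept and, within the latter, those that lost over 50%. The medians are 94.2%, 83.0% and 66.96%, and the first 2 distributions overlap between about 80 and 100%.

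Fisher's exact test on the pooled reads of days 4 and 17, two-sided with Benjamini-Hochberg adjustment over all 1560234 CpGs, called 9529 of the 23327 kept CpGs lower at day 17, which is 40.8%. The background was 60.1% of all CpGs tested, and 89.7% of the other CpGs inside the limits were called lower. With an over-dispersion of 0.0055 between replicates allowed for, 23.5% of the kept CpGs were called, against 55.9% of all and 83.1% of the others. That allowance was fitted in the study on amplicon replicates. For capture data the paper saw no need of such an allowance, because a binomial model described the spread of its replicates well. Here the spread between capture replicates cannot be measured from joined columns. A loss of at least 10 percentage points together with the call was found in 9.32% of the kept CpGs, 76.9% of the others and 49.7% of all CpGs tested. The test called 12 of the kept CpGs (0.0514%) higher at day 17, with a background of 0.143%. The median difference of day 17 from day 4 was -5.10 percentage points in the kept CpGs and -14.2 in the others. Pooled reads hide the spread between the 3 samples, and a CpG that was not called is not shown to be stable.

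The wild-type level differed between the kept CpGs and the others, although both met the same wild-type limits. The median excess of TTKO day 0 over wild type was 6.20 percentage points in the kept CpGs and 10.9 in the others, both from columns of the rule. The share of CpGs that kept methylation was 4.10% at wild-type levels of 60 to 65%, 6.61% at 70 to 75%, 26.3% at 80 to 85% and 52.2% at 85 to 90%. It was 6.94% at day 0 levels of 80 to 85% and 30.0% at 90 to 95%. Because these levels differ between the sets, further comparisons were repeated in CpGs with a day 0 level of 85 to 90% and a wild-type level of 75 to 85%. There the median day 17 level was 94.0% of day 4 in 6791 kept CpGs and 85.8% in 27487 others.

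Local CpG density, which the rule did not use, rose with the share that kept methylation. With 1 or 2 CpGs in the window that reaches 100 bases to each side, the CpG itself included, 8.86% of 35509 CpGs were kept. The share was 12.04% at 3 to 4 CpGs, 15.4% at 5 to 7, 21.8% at 8 to 11, 25.9% at 12 to 16 and 33.8% of 480 CpGs at 17 or more. Over all CpGs inside the limits, the median day 17 level rose alongside from 83.1% to 88.9% of day 4, which are columns the rule did not use. At the matched levels given above, the share of kept CpGs rose from 13.3% at 1 to 2 CpGs to 30.97% at 12 or more. Mean density was higher in kept than in other CpGs on 20 of 20 chromosomes.

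**Figure D3:**
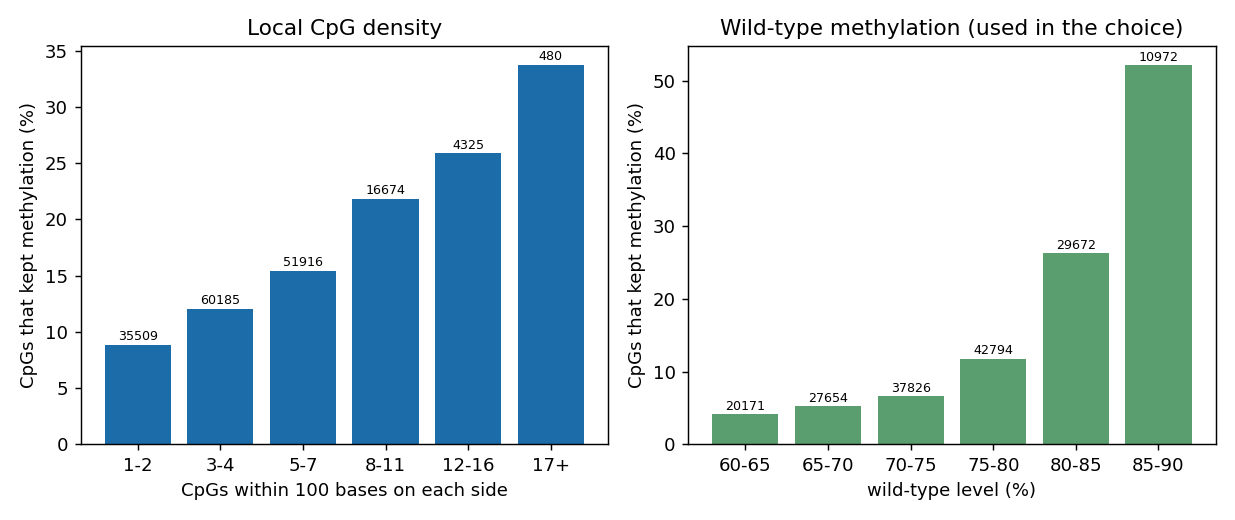
Percentage of CpGs inside the limits that kept methylation, by number of CpGs within 100 bases on each side (left) and by wild-type level in percent (right), with the number of CpGs above each bar. The share rises from 8.86% to 33.8% with density and from 4.10% to 52.2% with the wild-type level, which was among the values of the rule.

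The bases next to the CpG also differed. Each CpG was classed by the base before and the base after it, with both strands joined, which gives 10 classes. The share that kept methylation was 17.9% of 14933 CpGs in CCGG, 16.2% in CCGC and 16.1% in GCGC. It was 11.4% in TCGA, 10.4% in ACGA and 10.2% of 9108 CpGs in ACGT, the lowest class. Day 17 over day 4 had a median of 86.1% in all CCGG sites inside the limits and 83.3% in ACGT sites. CCGG exceeded ACGT on 20 of 20 chromosomes and in the 4 classes of density up to 11 CpGs, for example with 27.8% against 14.4% at 8 to 11 CpGs. At 12 or more CpGs the order was the other way, with 31.03% of 348 CCGG sites and 33.3% of 162 ACGT sites.

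CpGs that kept methylation lay far from gene starts more often than the others. Their median distance to the nearest start of a protein-coding gene was 46854 bases, against 26330 bases in the others and 15682 bases in CpGs that lost over 50%. The share kept was 15.7% within 1000 bases of a start site, fell to 7.34% at 1000 to 5000 bases and was 12.3% at 10000 to 50000 bases and 21.5% beyond 100000 bases. The dip next to start sites held at matched levels, where the shares were 24.8%, 11.6%, 17.6% and 28.5%. CpGs near a start site were few in both sets, 4.76% of kept and 4.08% of other CpGs, against 29.7% of all CpGs with the coverage. A difference in that share had no common direction, since kept CpGs were lower on 8 of 20 chromosomes.

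In protein-coding gene bodies lay 52.3% of the kept CpGs (95% Wilson interval 51.7 to 53.0%, counting error only) and 59.4% of the others (59.2 to 59.7%). All CpGs with the coverage were in gene bodies at 60.5%. Introns held 39.99% of kept and 46.3% of other CpGs, untranslated exon parts 2.01% and 3.03%, and coding exons 9.88% and 9.21%. Over all CpGs with the coverage these shares were 39.99%, 7.91% and 11.3%. Without matching, the gene body order was the same on 20 of 20 chromosomes. At matched levels the gene body shares were 52.4% of kept and 58.7% of other CpGs. Introns held 41.2% and 46.3% there, untranslated exon parts 1.99% and 2.66%, and coding exons 8.76% and 8.91%. The higher coding exon share of kept CpGs thus did not hold at matched levels. Sequences that occur many times in the genome took a small part: the 31 bases around the CpG had 10 or more exact copies in mm9 for 1.55% of kept and 0.528% of other CpGs. They were unique for 93.1% and 96.8%, and within unique sequences the median day 17 level was 94.1% and 83.0% of day 4. Levels at multicopy sites are uncertain, since reads could come from another copy.

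The kept CpGs were clustered. Another kept CpG lay within 50 bases of 48.9% of them, within 200 bases of 61.2%, within 1000 bases of 70.3% and within 5000 bases of 74.4%. A kept CpG lay within 1000 bases of 28.1% of the other CpGs inside the limits. Any other CpG inside the limits lay within 1000 bases of 94.1% of kept CpGs and 85.6% of the others. The part of this local density in the clustering was not tested. Kept CpGs formed 11803 runs, of which 6927 held a single CpG, 834 held 5 or more and 132 held 10 or more. The runs of 5 or more held 26.3% of the kept CpGs. CpGs on the same fragments share reads, so close CpGs are not independent measurements.

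CpGs outside the limits retained more when a kept CpG was close. Their wild-type or day 0 level did not meet the rule, and 479288 of them had the coverage and a day 4 level of at least 50%. Within 50 bases of a kept CpG, 11301 such neighbours had at day 17 a median of 81.3% of the day 4 level, against 72.7% for 75277 neighbours within 50 bases of a CpG that was not kept. The medians were 75.3% and 70.2% at 51 to 200 bases and 71.4% and 66.2% at 1001 to 2000 bases. At 5001 to 20000 bases they were 69.1% and 65.9%, and the median of all such CpGs was 68.5%. Neighbours of kept CpGs had also higher wild-type levels, with a median of 61.8% against 57.6% within 50 bases, 48.9% against 33.1% at 1001 to 2000 bases and 44.8% against 33.0% at 5001 to 20000 bases. The part of that in their retention was not tested. A neighbour may count under both sets.

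**Figure D4:**
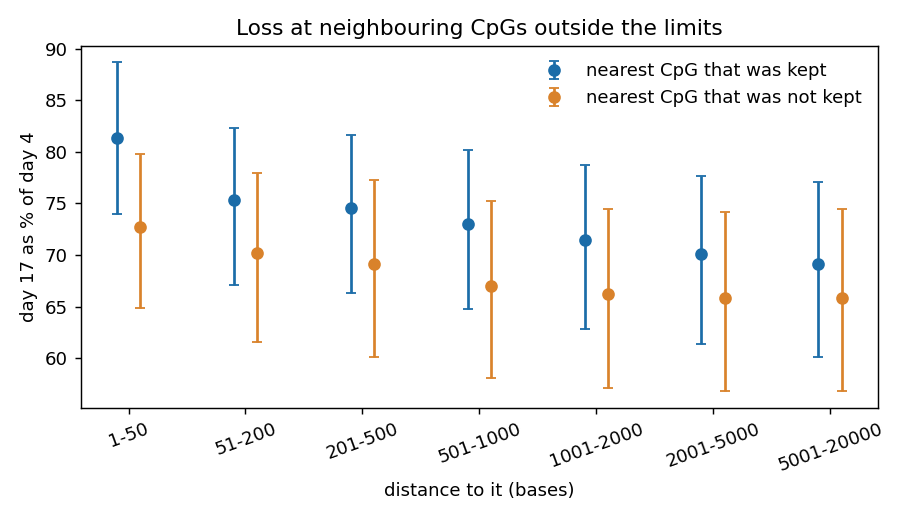
Day 17 level as a percentage of day 4 at CpGs outside the limits, by distance in bases to the nearest CpG that was kept or not kept; points are medians and bars quartiles. Near kept CpGs the median falls from 81.3% within 50 bases to 69.1% at 5001 to 20000 bases, and near CpGs not kept from 72.7% to 65.9%.

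Of the 12 runs with the most kept CpGs, 9 overlapped a protein-coding gene. The runs in Dyrk2 and Pck1 held 20 kept CpGs as well, as many as the 12th run, in Chst11, which had the larger share of its covered CpGs kept. The largest held 35 kept CpGs of 64 with the coverage over 2797 bases of Sox5 (chr6:143781017-143783813), a gene for a transcription factor of cartilage and neuron development. Their mean was 80.8% in wild type, 88.0% at day 4 and 84.6% at day 17, and 5 of 35 were called lower at day 17 by Fisher's exact test and 2 by the over-dispersed test, beside 60.1% and 55.9% of all CpGs tested. Of these 35 CpGs, 26 lay in exons, at least 665267 bases from an annotated start site. A second large run in Prkce, which encodes protein kinase C epsilon, held 30 kept CpGs of 63 in introns (chr17:86700197-86703424). The Prkce means were 82.4% in wild type, 88.7% at day 4 and 84.2% at day 17, and Fisher's exact test called 8 and the over-dispersed test 4 of the 30 lower.

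Several runs lay within single coding exons. In Pxdn, which encodes the peroxidase that crosslinks collagen IV, 23 of 28 CpGs with the coverage were kept over 371 bases (chr12:30687289-30687659), and all 28 were inside the limits. In Srrm2, a gene for a splicing protein of nuclear speckles, 23 of 52 were kept (chr17:23956439-23957145). The run in Fat1, an atypical cadherin gene, held 21 of 61 (chr8:46108719-46109561) and that in Chst11, a chondroitin sulfotransferase gene, 20 of 26 (chr10:82654008-82654479). Every kept CpG of these 4 runs lay in coding sequence. Their mean levels at day 17 were 88.0% in Pxdn, 84.1% in Srrm2, 83.7% in Fat1 and 86.5% in Chst11, against 91.8%, 88.8%, 89.7% and 90.4% at day 4. Fisher's exact test called 5, 12, 11 and 7 of their CpGs lower and the over-dispersed test 4, 5, 9 and 4, beside 60.1% and 55.9% of all CpGs tested.

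The runs outside gene bodies were near Tlx3, a homeobox gene of sensory neurons, with 23 of 57 kept CpGs (chr11:33096861-33098566) and near Clint1, a clathrin adaptor gene, with 22 of 29 (chr11:45642620-45643185). Fisher's exact test called 10 of 23 CpGs lower near Tlx3 and 16 of 22 near Clint1, and the over-dispersed test 9 and 8. Of all CpGs tested, these tests called 60.1% and 55.9%, and the share near Clint1 by Fisher's exact test was above its background. A further run of 22 of 45 lay 461503 bases from its nearest gene, Gm12887 (chr4:121756211-121757264). The run in Ddx3y, the Y-linked gene of an RNA helicase, held 22 of 31 (chrY:622657-623286) and reached to 12 bases from the start site. In the same order of tests, 9 and 6 of 22 were called near Gm12887 and 4 and 4 of 22 in Ddx3y, beside the same 60.1% and 55.9%. On the Y chromosome as a whole 33 of 63 CpGs inside the limits were kept.

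Coverage or copy number was high in 3 of the 12 runs. In the run over Sfi1, a centrosome gene, and Drg1, a GTPase gene, 34 of 71 CpGs were kept (chr11:3092003-3093860) and their median coverage was 5063 reads at day 0, against 326 over all kept CpGs. Fisher's exact test called 23 of these 34 lower and the over-dispersed test 6, beside 60.1% and 55.9% of all CpGs tested. The share by Fisher's exact test was thus above its background, with means of 86.3% at day 4 and 83.2% at day 17. The 31 kept CpGs of 43 in Armc8, a gene of a ubiquitin ligase complex, lay in 582 bases (chr9:99394300-99394881) with a median of 3 copies of the surrounding 31 bases. Their mean was 89.1% at day 4 and 88.5% at day 17, and Fisher's exact test called 4 and the over-dispersed test 0 of the 31 lower. The run near Clint1 had a median of 4 copies, and the other 10 runs a median of 1. Whether reads of other copies entered these levels was not tested.

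The most deeply read CpG of each of the first 8 runs shows the course at single sites, with 95% Wilson intervals that cover counting error only. At chr6:143782991-143782992 in an intron of Sox5 the wild-type level was 81.4%, and the TTKO levels over the 7 time points, in order from day 0 to day 29, were 86.8, 87.2, 87.8, 86.4, 85.1, 84.1 and 80.1%. Its interval was 83.8 to 89.9% at day 4 (467 reads) and 81.0 to 86.8% at day 17 (623 reads), and the intervals overlapped (adjusted p = 0.244, Fisher's exact test). The coding CpG at chr12:30687342-30687343 in Pxdn had 88.7% in wild type and 92.0, 92.8, 90.8, 91.3, 91.9, 88.3 and 87.3% in the same order. The day 4 and day 17 intervals of 89.3 to 95.3% and 84.7 to 91.2% overlapped too (adjusted p = 0.103, Fisher's exact test).

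At the Sox5 site the day 29 interval of 76.7 to 83.1% lay below that of day 4. Sites near Tlx3 and Clint1 were called lower already at day 17 by Fisher's exact test, which called 60.1% of all CpGs tested. The same test called the sites in Srrm2 (adjusted p = 0.000344) and in Sfi1 and Drg1 (adjusted p = 4.06e-06). It did not call the site in Prkce (adjusted p = 0.128, Fisher's exact test). At chr11:33098565-33098566 near Tlx3 the level was 70.9% in wild type and 88.6, 87.8, 89.1, 86.1, 85.9, 78.7 and 80% over the 7 TTKO days. The interval at day 17 was 76.2 to 81.0% (1164 reads), below the 85.4 to 89.8% of day 4 (adjusted p = 4.25e-07, Fisher's exact test). At chr11:45643031-45643032 near Clint1 it was 74.9% in wild type and 88.8, 89.6, 89.5, 87.1, 85.5, 83.7 and 80.2% over those days. At both sites the day 29 level was above the wild-type level, as at the sites in Srrm2, in Prkce and in Sfi1 and Drg1. In Sox5, Pxdn and Armc8 it was below. Both levels are from columns of the rule. Over the kept CpGs as a whole, day 29 was above wild type in 61.1% and below it in 38.2%. The site in Armc8 (chr9:99394409-99394410) was at 89.6% in wild type, 91.6% at day 4, 88.5% at day 17 and 89.3% at day 29, with 2 copies of its 31 bases, and was called lower at day 17 (adjusted p = 0.0427, Fisher's exact test). That call was lost in the over-dispersed test.

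**Figure D5:**
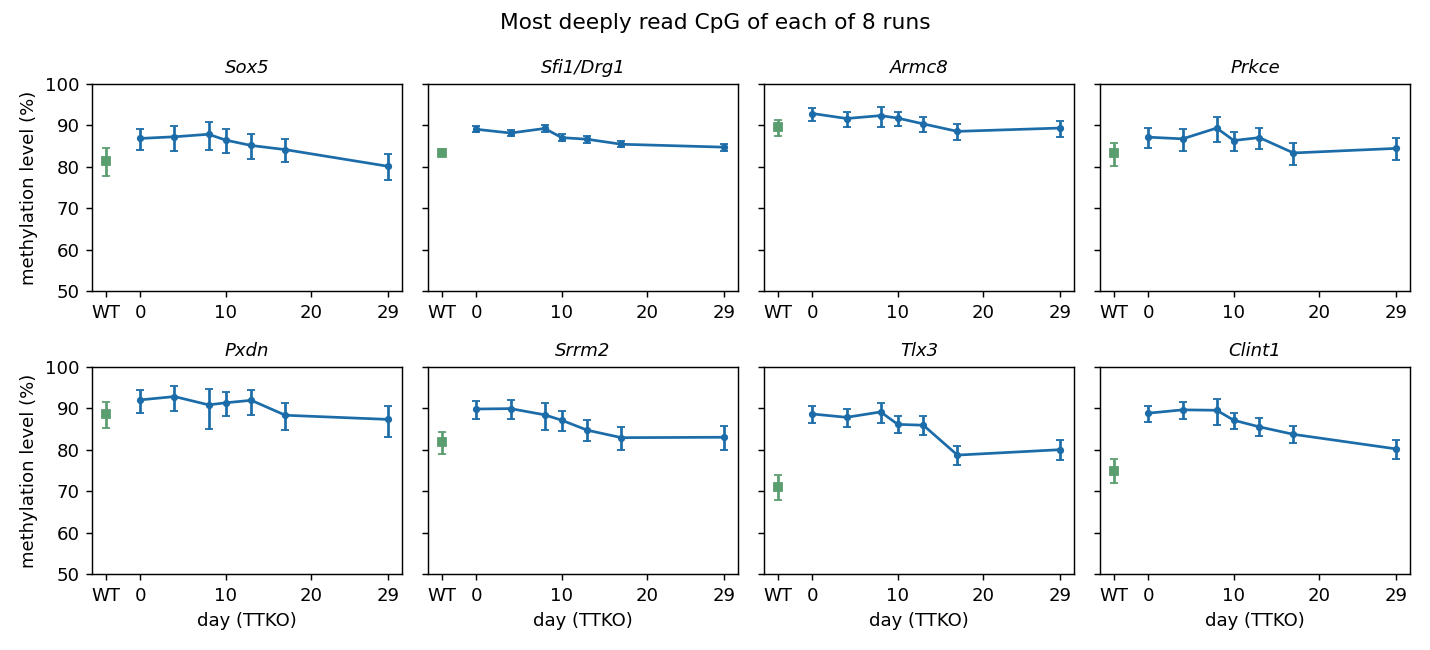
Methylation level in percent against day in TTKO cells (circles) and in wild type at day 0 (squares) at the most deeply read kept CpG of each of the 8 largest runs, labelled by overlapping or nearest gene; bars are 95% Wilson intervals and the axis starts at 50%. The Tlx3 site falls to 78.7% at day 17, and the Armc8 site stands at 88.5%, lower than at day 4 by Fisher's exact test but not by the over-dispersed test.

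Across genes, 3343 of 22380 protein-coding genes held a kept CpG in their body, where a CpG in overlapping genes counts for each. The most were in Gm20388, a read-through annotation that spans 4434882 bases, with 114 of 1138 CpGs inside the limits. Then followed Sox5 with 86 of 239 and Prkce with 57 of 218. Esrrg, which encodes an orphan nuclear receptor, had 54 of 117, Chst11 had 49 of 107, and Maml3, a Notch coactivator gene, had 48 of 123. The genes of the transcription factor NFIA (Nfia, 42 of 145), the centrosome protein SFI1 (Sfi1, 42 of 166), the growth factor receptor FGFR2 (Fgfr2, 42 of 391) and the ETS factor ERG (Erg, 41 of 102) closed the first 10, and Zbtb16 tied in number with Erg (41 of 122). The median day 17 level of their kept CpGs ranged from 93.9% of day 4 in Gm20388 to 95.6% in Sox5 and Chst11.

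The order by share differed from that by number. Among 1318 genes with at least 20 CpGs inside the limits, the median share kept was 11.9%, the quartiles were 4.55% and 22.2%, 200 genes held none and 22 exceeded 50%. The highest was Gm4782 with 17 of 20, all exonic, followed by Dyrk2, a protein kinase gene, with 20 of 26, Pxdn with 24 of 34 and Drg1 with 34 of 50. Dsp, which encodes the desmosomal protein desmoplakin, had 14 of 21, Dph5, a diphthamide synthesis gene, 13 of 20, and Armc8 31 of 48. Col6a2, a collagen VI gene, had 15 of 24, and Fkbp6, a gene active in meiosis, and Kcnd3, a potassium channel gene, had 13 of 22 each. In Gm4782 the mean level was 86.3% in wild type, 88.5% at day 4 and 86.6% at day 17, and 1 of 17 CpGs was called lower by Fisher's exact test, beside 60.1% of all CpGs tested. Others of these 10 genes had larger shares called by that test, with 11 of 15 in Col6a2, 23 of 34 in Drg1 and 8 of 14 in Dsp, and the other 6 had 3 of 20 in Dyrk2, 5 of 24 in Pxdn, 3 of 13 in Dph5, 4 of 31 in Armc8 and 5 of 13 each in Fkbp6 and Kcnd3. The median number of copies of the surrounding 31 bases was 4 in Gm4782, so its levels are uncertain.

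The share kept varied with gene length and region. In the 1318 genes with at least 20 CpGs inside the limits, by quartile of gene length, it was 13.2%, 13.8%, 15.3% and 18.6%, from genes of up to 62879 bases to those of 227425 bases or more. In windows of 1 megabase with at least 60 CpGs inside the limits, it ranged from 0 to 46.1% with a median of 12% over 1129 windows. The highest was on chromosome 13 (57000000 to 57999999), where 41 of 89 CpGs were kept.

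Gene groups that differ in their known methylation were compared by counts, beside the 13.8% of all CpGs inside the limits. Germline genes silenced by methylation in somatic cells held 21 kept of 72 CpGs (29.2%), among them 6 of 13 in Sohlh2, a germ cell transcription factor gene, 6 of 7 in Tdrd1 of the piRNA pathway and 3 of 14 in Ddx4, a germ cell helicase gene. Olfactory receptor genes held 38 of 120 (31.7%), with 10 of 14 in Olfr282, 9 of 14 in Olfr281 and 6 of 11 in Olfr1509. Vomeronasal receptor genes held 7 of 17 (41.2%), of which 4 of 5 lay in Vmn2r87. The clustered protocadherins held 25 of 95 (26.3%), 24 of them in Pcdha11. Few CpGs and few genes carry each of these counts, and no test was made of them.

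Other groups were near or below the overall share. Zinc-finger genes held 103 of 982 (10.5%), with 22 of 65 in Zfp407, 15 of 87 in Zfp536, 6 of 22 in Zfp618 and 6 of 28 in Zscan20. Long neuronal genes held 32 of 236 (13.6%), with 11 of 33 in Macrod2, 4 of 14 in Pcdh15 and 3 of 14 in Magi2. Genes of writers and erasers of DNA methylation held 6 of 62 (9.68%), of which 5 lay in Tet3, a mutated gene of the TTKO line. Core pluripotency genes held 2 of 48 (4.17%), while Hox clusters held 0 of 11 and genes that every cell transcribes 0 of 4.

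Amplicons gave replicate measurements, but 0 of 405 amplicon CpGs were kept CpGs. A single amplicon CpG met the wild-type and day 0 limits of the capture data, at position 125236549 of chromosome 6, 489 bases from Tuba3a, a tubulin gene, and 139 bases from a kept CpG. In TTKO cells at day 29 it was at 81.1, 87.5 and 83.7% after Cre and at 94.3, 94.2 and 93.2% in the mock. In wild-type cells it was at 63.2, 61.6 and 75.2% after Cre and at 88.6, 89.7 and 90.02% in the mock. Groups did not overlap in either line. The quasi-binomial model called it lower after Cre in TTKO (mean 84.1% ± 3.19 against 93.9% ± 0.599, SD, n = 3 each, adjusted p = 0.000782) and in wild type (66.7% ± 7.45 against 89.4% ± 0.726, adjusted p = 0.00139). The background of such calls was 66.7% of 384 amplicon CpGs in TTKO and 51.8% of 392 in wild type. The difference between the lines was not past the threshold (adjusted p = 0.408 for the interaction term of the same model).

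On the amplicon means themselves, 19 CpGs met the same 3 limits on level. They were identified after their values had been seen, and their TTKO day 29 level chose them, so only the wild-type course after Cre is a separate measure. Of these, 9 lay in a coding exon of Zbtb20, a zinc-finger repressor gene (chr16:43609654-43609828), 460 bases or more from the nearest kept CpG. Averaged over the 9 CpGs, the 3 TTKO replicates at day 29 were at 92.7, 93.1 and 92.4% after Cre and at 95.8, 95.9 and 96.7% in the mock. The wild-type replicates were at 43.3, 32.7 and 49.4% after Cre and at 79.9, 84.2 and 83.8% in the mock. Each of the 9 CpGs was called lower in wild type, with adjusted p of 0.00495 at most by the quasi-binomial model.

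The other 10 were 3 CpGs in an intron of Aff3, 4 CpGs 190053 bases or more from Irx4, 1 in an intron of Fbxl17 and 2 in a coding exon of AU022751. They lay at least 5155, 30617, 17864 and 770913 bases from the nearest kept CpG, so they are not measurements beside kept CpGs. In wild type, the mean after Cre was 66.3% ± 0.449 in Aff3, 52.2% ± 0.815 near Irx4, 70.8% ± 1.04 in Fbxl17 and 67.9% ± 1.70 in AU022751 (SD, n = 3). The mock means were 88.1% ± 3.24, 90.7% ± 0.991, 90.2% ± 0.279 and 93.0% ± 0.883. In total 19 of 19 were called lower in wild type, with the background of 51.8% given above. These CpGs lay in groups on 5 chromosomes, and CpGs of the same amplicon share reads, so they are not 19 independent measurements. The TTKO means after Cre were 86.9% ± 1.16 in Aff3, 89.4% ± 0.661 near Irx4, 84.5% ± 2.37 in Fbxl17 and 83.7% ± 4.57 in AU022751, against 93.7% ± 1.01, 95.0% ± 1.21, 92.7% ± 1.62 and 94.7% ± 4.50 in the mock. In TTKO the model called 13 of the 19 lower after Cre, with a background of 66.7%, and these TTKO values had a part in the choice. Amplicon CpGs of low level cannot fall far and are part of that background.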

How the data were processed

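Genomic DNA of mouse embryonic stem cells was bisulfite converted and sequenced after SureSelect capture (24 samples) or as amplicons (78 samples). The authors aligned reads to mm9 with Rbowtie in QuasR and called levels with qMeth (capture) or AmpliconBiSeq (amplicons). The capture table was deposited by the authors with coverage as read counts and levels as percent, the 3 samples of a group joined and CpGs under 50 reads left out. The amplicon tables were deposited with coverage counts and the fraction of methylated reads per replicate. Columns of inferred rates, confidence classes and TET activity in these tables hold the authors' model results and were not used. No sequencing batch is labelled.

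Methylated reads were taken as level times coverage, and the limits were applied to the levels as deposited. Day 17 was compared with day 4 per CpG by Fisher's exact test (numba 0.67.0, scipy 1.17.1), two-sided, with Benjamini-Hochberg adjustment over all CpGs with 100 reads in all columns and a threshold of 0.05. A model over replicates had been planned and could not be fitted to joined columns. An alternative allowed an over-dispersion of 0.0055, taken from amplicon data. For amplicon CpGs a quasi-binomial regression was fitted per CpG (R 4.3.3), with 0.5 added to each count and dispersions moderated in limma 3.58.1. These tests were checked on simulated data. The study describes its replicates as biological, and with a clone per genotype p-values measure the spread between experiments on that clone.

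Median coverage of the kept CpGs was 212 reads at day 8 to 358 at day 17. Reads carry no molecular identifiers and may be PCR copies, hence intervals cover counting error only. Positions were placed on the mm9 sequence, where 2177608 of 2177608 CpGs fell on a CG, and on the GENCODE M1 annotation of protein-coding genes. CpGs, gene lists and tests were chosen with earlier results of these data known. Named were the 12 largest runs, the 10 genes with the most kept CpGs, the 10 with the highest share among at least 20 CpGs inside the limits, the most deeply read kept CpG of the first 8 runs, and up to 4 genes per list with at least 3 kept CpGs. A gene that this rule names is not reported here. Alternatives changed the coverage limits, the retention limit, the days, the distances and the amplicon replicates.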

Additional observations from a re-analysis of the deposited data

How the results depend on the processing

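The number of kept CpGs depended on the limits. It was 31647 with at least 50 reads and 12609 with at least 200 reads per column, 43701 and 8597 with a retention limit of 0.85 and 0.95, and 8467 by the Wilson lower limit. The kept CpGs called lower by day 17 numbered 5491 with over-dispersion, 2175 with a difference of at least 10 points, 2707 for day 13 against day 4 and 4698 for day 17 against day 10. For the first 2 settings, 55.9% and 49.7% of all CpGs were called. For the last 2 comparisons, 58.5% and 61.2% of the other CpGs inside the limits and 45.8% and 39.5% of all CpGs were called. With at least 200 reads 6573 kept CpGs (52.1%) were called, against 95.8% of the others and 70.6% of all. Median retention was 97.3% for day 13 over day 4, 95.8% for day 17 over day 10, and, chosen after seeing the data, 94.0% at matched levels and 94.1% in unique sequence. The share with another kept CpG was 61.2% within 200 bases and 74.4% within 5000. The gene body share was 53.3% at 200 reads and 58.7% with 5000 bases added on each side (68.9% in the others). The remaining alternatives for the capture data moved counts by less than 1.5 times and medians and shares by less than their counting interval. CpGs outside soft-masked repeats were not run, because the sequence used here carries no masking.

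Amplicon replicates share numbers between Cre and mock, but the deviations of same-numbered samples correlated at -0.132 to 0.107, so the numbers were not taken as pairs. With a replicate block, 253 CpGs in TTKO and 190 in wild type were called lower, against 256 and 203. Leaving out 1 replicate gave 219 to 261 in TTKO and 179 to 198 in wild type. No paired analysis was possible because the capture columns join their replicates, so none was made for capture data. Depth limits the choice of single CpGs: at 100 to 150 reads in the shallowest column 15.1% of the CpGs inside the limits were kept, at 500 to 1000 reads 11.5%, and at 1000 reads or more 18.4% of 681.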
